A study of Mus musculus with 18 samples.

Results

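The levels of 9 genes of the oligodendrocyte lineage were followed through the differentiation of mouse neural stem cells into astrocytes, and the genes were chosen by name as the rows of the count table for Olig1, Olig2, Pdgfra, Cspg4, Mbp, Cnp, Bcas1, Gpr17 and Myrf. They are 9 of the 54838 genes in the table, and all 9 passed the filter on low counts, as did 20067 genes in all. Total RNA was sequenced from 18 cultures in 6 conditions with 3 replicates each. The conditions were neurospheres (NSPs, floating aggregates of neural stem cells kept dividing in EGF), cells differentiated for 24 h, 72 h or 1 week in 10% fetal bovine serum, and cells differentiated for 24 h or 72 h in the same serum with the inflammatory cytokine TNF at 50 ng/ml. All cells came from the ventricular zone of wild-type C57BL/6J brains at embryonic day 14, carried no engineered allele, and were grown in culture only. The labels number the replicates but do not say whether they came from separate embryos. The study's methods name single brains as the source and, unless otherwise stated, at least 3 independent experiments. They do not assign the sequenced replicates to these. The p-values therefore measure the spread between these cultures, which may be partly technical.

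Oligodendrocytes wrap axons in myelin and arise in stages from neural progenitors. The basic helix-loop-helix factors OLIG1 and OLIG2 mark progenitors with this potential, and the precursors that follow carry the PDGF receptor PDGFRA and the proteoglycan NG2, the product of Cspg4. Cells that commit to differentiation pass through a stage marked by BCAS1 and GPR17, the factor MYRF then switches on the myelin genes, and the myelin proteins CNP and MBP come last. Astrocytes arise from the same neural stem cells, and serum favours them in culture.

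In these cultures Olig1, Olig2, Cspg4 and Bcas1 were high in NSPs and fell in both the first 24 h and the following 2 days, while Cnp rose about 4-fold between 24 h and 72 h. Mbp and Myrf had few reads in every condition, and Mbp had none at 1 week. With TNF, Olig2 and Cspg4 were higher and Cnp was lower than in untreated cells at 72 h, and no gene of the 9 passed the test at 24 h.

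The upstream regions of 4 of the genes are shown because the table of promoters used here holds these 4 of the 9. Of them, Olig2, Cspg4 and Pdgfra fell in the first 24 h and Cnp was not called. They are RefSeq sequences on GRCm38.p6, all on the plus strand, and each stops before the first annotated start of the gene. The Olig2 stretch is chr16:91225300-91225456, that of Cspg4 chr9:56864854-56865032, that of Pdgfra chr5:75152001-75152250 and that of Cnp chr11:100574689-100574903. Capitals mark every match, on either strand, to CANNTG (the E-box, the letters bound by helix-loop-helix factors such as OLIG2), to ACAAAG (a SOX factor motif) or to GGGNNNNNCC (letters common to sites of NF-kB, a factor that TNF activates).
Olig2: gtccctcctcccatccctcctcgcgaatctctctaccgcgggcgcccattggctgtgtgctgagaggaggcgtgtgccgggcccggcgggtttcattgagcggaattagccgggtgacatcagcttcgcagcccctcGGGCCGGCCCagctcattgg
Cspg4: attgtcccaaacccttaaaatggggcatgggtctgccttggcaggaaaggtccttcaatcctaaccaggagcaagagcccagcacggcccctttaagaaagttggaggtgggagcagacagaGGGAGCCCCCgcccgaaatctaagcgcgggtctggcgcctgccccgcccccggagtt
Pdgfra: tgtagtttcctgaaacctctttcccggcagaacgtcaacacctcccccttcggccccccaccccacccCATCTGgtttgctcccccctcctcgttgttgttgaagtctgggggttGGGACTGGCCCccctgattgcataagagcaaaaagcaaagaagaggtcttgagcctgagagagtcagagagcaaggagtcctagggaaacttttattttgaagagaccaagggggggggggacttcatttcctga
Cnp: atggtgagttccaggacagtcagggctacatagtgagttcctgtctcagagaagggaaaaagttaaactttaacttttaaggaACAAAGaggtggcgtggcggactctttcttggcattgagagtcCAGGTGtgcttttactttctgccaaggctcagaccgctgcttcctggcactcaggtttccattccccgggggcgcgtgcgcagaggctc
The Olig2 and Cspg4 stretches each hold 1 match to GGGNNNNNCC and none to CANNTG or ACAAAG. In the first bases of the 32851 promoters of the same table, GGGNNNNNCC occurs in 29% of stretches as long as that of Olig2 and in 33.1% of those as long as that of Cspg4. Pdgfra holds 1 CANNTG, found in 66.2% of promoters at its length. It also holds 2 overlapping matches to GGGNNNNNCC, of which at least 1 match is found in 45.8%. Cnp holds 1 CANNTG and 1 ACAAAG, found in 61.4% and 14.5% of promoters at its length, and no GGGNNNNNCC. These matches are letters in a window, not measured binding sites, and all but ACAAAG are common ones. The other 5 genes have no sequence shown here.

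Olig1 (chr16:91269772-91271933) and Olig2 (chr16:91225457-91228677) lie side by side on the plus strand of chromosome 16 in GENCODE M21 on GRCm38. On that annotation Pdgfra is at chr5:75152292-75198215, Cspg4 at chr9:56865033-56899870, Cnp at chr11:100574904-100591729 and Mbp at chr18:82475146-82585637, all on the plus strand. Bcas1 at chr2:170346991-170427845, Gpr17 at chr18:31942997-31949636 and Myrf at chr19:10208272-10240748 are on the minus strand. Several members share exon bases with a gene on the opposite strand. Per the study's methods the libraries were made with a stranded kit, but the strand setting of the counting is not given in the sources used here. Cnp shares 154 bases with Dnajc7, whose condition means stayed between 119 and 173 CPM and which has 43671 counts against 60813 for Cnp. Gpr17 shares 188 bases with Lims2, and over the 18 libraries Lims2 has 359 counts and Gpr17 itself 328. Olig1 shares 157 bases with Gm15966, which has only 182 counts against 65073 for Olig1, and Bcas1 shares 440 and 34 bases with Bcas1os1 and Bcas1os2, which have 724 and 791 counts against 14315.

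Total counts per library ranged from 12509693 to 22549627, and levels are given as CPM, the count of a gene scaled to a common library size, with library sizes adjusted by the TMM method. The precision from depth covers counting error only, because the reads carry no molecular identifiers. In all, 3 libraries stood apart from their own group: replicate 1 of the NSPs, of 24 h with TNF and of 72 h with TNF differed from their 2 partners by a chi-square per degree of freedom of 46.1 to 62.7, against 4.08 to 32.5 for every other pair of replicates. The counts of called genes are therefore also given without these 3, an alternative chosen after the data were seen. The astrocyte label was checked on 10 astrocyte genes, all of them detected. Their summed level was 5242 to 5464 CPM in NSPs, 5878 to 6175 at 24 h, 6215 to 8510 at 72 h and 3501 to 3632 at 1 week, and with TNF it was 5063 to 6465 at 24 h and 3696 to 5119 at 72 h. At 1 week 5 of the 10 were lower and 1 was higher than in NSPs, a share near the 58.6% of all tested genes called in that comparison. Gfap, their usual marker, rose from a mean of 27.1 CPM in NSPs to 899 at 24 h and 2432 at 72 h but was at 63.4 CPM at 1 week.

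**Figure D1:**
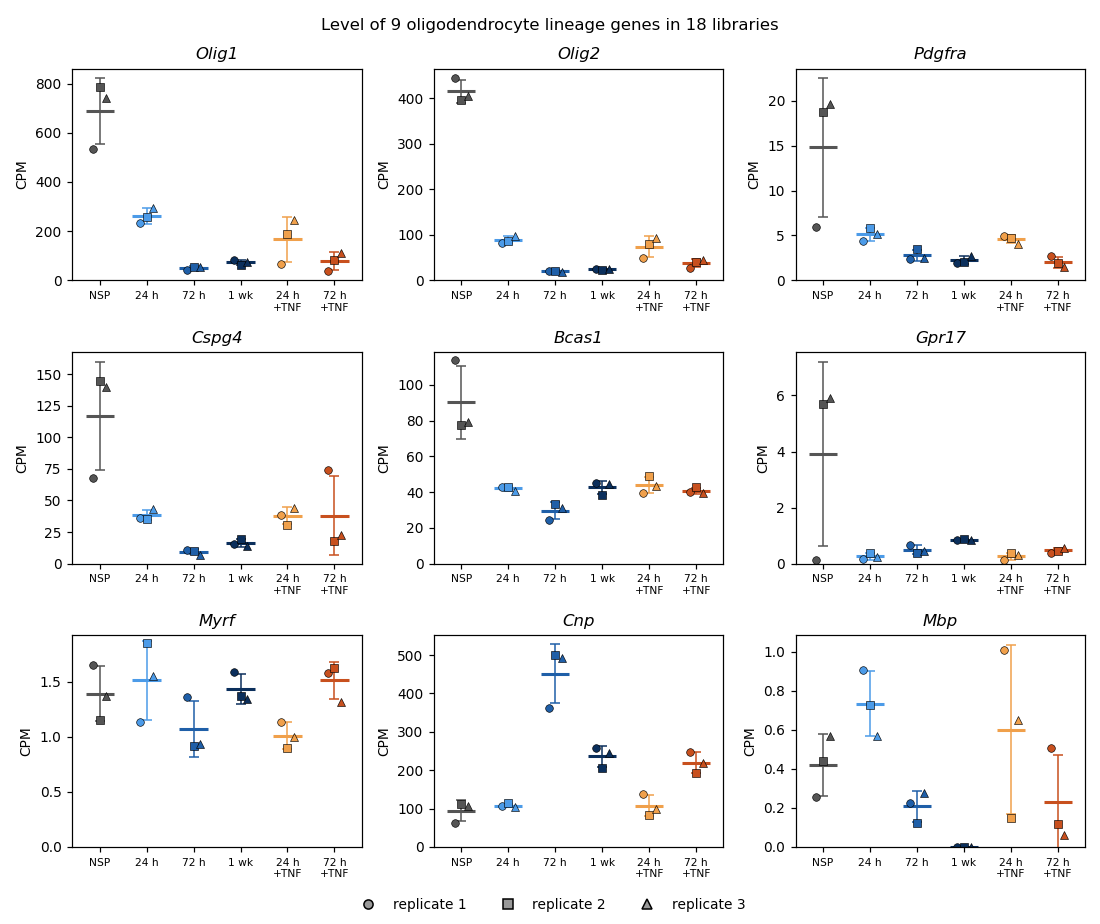
Level of each gene in CPM (vertical axes, each starting at 0) in the 6 conditions, with 1 point per library, the mean as a bar and the SD as whiskers (n = 3). Olig1 and Olig2 are highest in the 3 NSP libraries, Cnp is highest at 72 h without TNF, and Mbp has no read at 1 week.

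Between genes, levels were compared per kilobase of exon. In NSPs Olig1 stood at 318 ± 61.9 CPM per kb (SD, n = 3) and Olig2 at 164 ± 9.98, above 99.6% and 99.1% of the genes tested. Cnp at 25.9 ± 7.39, Bcas1 at 23.9 ± 5.44 and Cspg4 at 9.83 ± 3.6 CPM per kb followed. Pdgfra reached only 1.48 ± 0.772 CPM per kb in NSPs, and Gpr17, Myrf and Mbp stayed at or under 0.754. By 72 h the order had turned: Cnp led at 124 ± 21.2 CPM per kb, above 99.1% of tested genes, and Olig1 and Olig2 were at 23.1 ± 3.01 and 7.98 ± 0.622.

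The first comparison asked how the genes changed when NSPs were moved into serum. Of the 9, 6 were lower at 24 h than in NSPs and none was higher, at an adjusted p under 0.05 in edgeR's quasi-likelihood test. In all, 52.7% of the tested genes were called in this comparison, 27.2% higher and 25.5% lower, so a large share of the transcriptome moved with them. The median log2 fold change was -1.40 over the 9 genes and 0.06 over all genes tested. Without the 3 libraries that stood apart 6 genes were called as well. In bulk RNA, fewer cells of a type and less RNA per cell cannot be told apart.

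Olig2, which specifies the lineage, had counts of 6995, 7233 and 7101 in NSPs and of 1094, 1538 and 1193 at 24 h, or 415 ± 25.3 against 88.6 ± 7.61 CPM. The groups lie far apart with little spread in either, and the log2 fold change was -2.23 ± 0.19 (SE, adjusted p = 4.02e-08). For its neighbour Olig1 the counts were 8436, 14325 and 13032 in NSPs and 3063, 4573 and 3620 at 24 h, a log2 fold change of -1.40 ± 0.36 (adjusted p = 0.00322). All 3 NSP libraries were above all 3 at 24 h for both genes, although the first NSP library was the lowest for Olig1 and the highest for Olig2 in CPM.

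Among the precursor surface proteins, the growth factor receptor gene Pdgfra had 93, 343 and 347 counts in NSPs and 58, 104 and 63 at 24 h. In CPM the groups did not overlap, at 5.9, 18.8 and 19.7 against 4.38 to 5.81, but the first NSP library came close to the 24 h range. The log2 fold change was -1.53 ± 0.33 (adjusted p = 0.000859) and -1.91 without that library. Cspg4, the NG2 gene, was at 67.8, 145 and 140 CPM in NSPs and at 36.5, 35.4 and 43 CPM at 24 h. Again every NSP library was higher and the first was the lowest of the 3, with a log2 fold change of -1.62 ± 0.39 (adjusted p = 0.00199).

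Of the genes of committed cells, Bcas1 was at 114, 77.5 and 79.4 CPM in NSPs and at 42.9, 43 and 40.5 CPM at 24 h. The 24 h libraries were nearly equal and all under the NSPs, and the log2 fold change was -1.10 ± 0.15 (adjusted p = 8.73e-06). Gpr17, a receptor that marks the passage from precursor to myelinating cell, had 2, 104 and 104 counts in NSPs and 2, 7 and 3 at 24 h. The first NSP library thus looked like the 24 h cells and the other 2 did not, so the groups overlapped. Lims2, with which Gpr17 shares exon bases, had 1, 16 and 20 counts in the same NSP libraries and 6, 10 and 6 at 24 h. The log2 fold change was -3.82 ± 0.78 (adjusted p = 0.000505) with the first library and -4.38 without it. Myrf did not pass the test, with 26, 21 and 24 counts in NSPs and 15, 33 and 19 at 24 h (log2 fold change 0.14 ± 0.26, adjusted p = 0.682).

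Neither myelin gene was called at 24 h. Cnp, which encodes a myelin enzyme also made at low levels by other cells, was at 63.1, 111 and 108 CPM in NSPs and at 106, 114 and 105 CPM at 24 h (log2 fold change 0.20 ± 0.20, adjusted p = 0.417). Mbp, the gene of the protein that compacts myelin, had 4, 8 and 10 counts in NSPs and 12, 13 and 7 at 24 h (log2 fold change 0.78 ± 0.58, adjusted p = 0.27). At so few reads a change of Mbp of this size was not detectable.

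**Figure D2:**
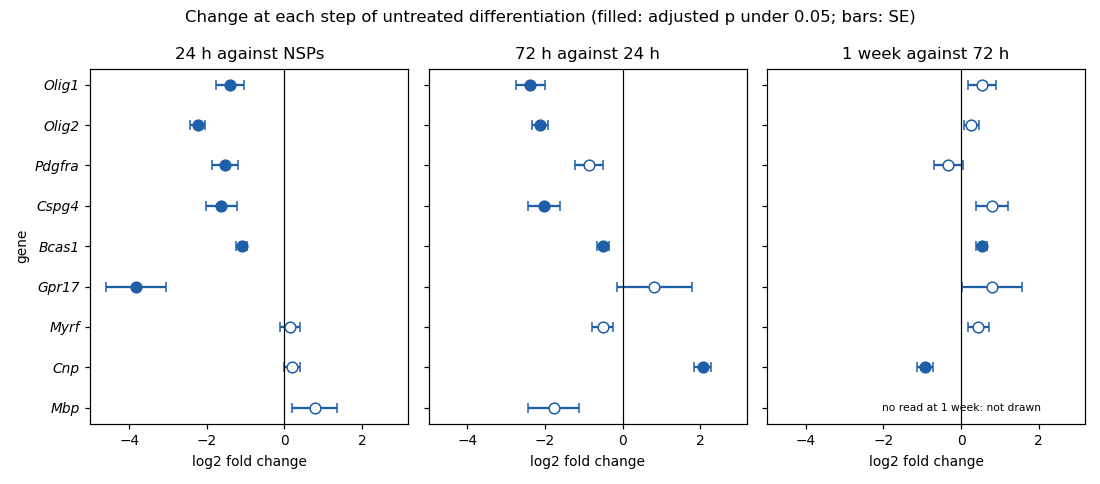
Log2 fold change of the 9 genes at each step of untreated differentiation (horizontal axes; whiskers are SE, filled points have an adjusted p under 0.05). The 6 called genes lie left of 0 and filled in the first panel, and Cnp is the filled point right of 0 in the second, at 2.06. In the third panel Bcas1 is filled on the right and Cnp on the left, and Mbp is not drawn because it had no read at 1 week. Neighbouring panels share a group of libraries.

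From 24 h to 72 h, 4 genes fell further and 1 rose, against 24.8% of all tested genes called, 12.2% higher and 12.6% lower. The median log2 fold change was -0.87 over the 9 genes and -0.01 over all genes tested. The 3 libraries that stood apart are in neither group and enter only through the shared estimate of the spread, and without them 7 genes were called. Olig1 counts were 563, 848 and 1001 at 72 h, a log2 fold change of -2.38 ± 0.37 from 24 h (adjusted p = 0.000124). The Olig2 counts were 277, 346 and 334, a log2 fold change of -2.13 ± 0.20 (adjusted p = 5.34e-07). For both genes the 72 h libraries were all far under the 24 h ones, at means of 49.9 and 20.2 CPM.

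Cspg4 dropped in the same step to 11.1, 10.2 and 7.04 CPM, with no overlap with 24 h (log2 fold change -2.02 ± 0.41, adjusted p = 0.00131). Bcas1 moved less, to 24.2, 33.2 and 31.3 CPM (log2 fold change -0.51 ± 0.15, adjusted p = 0.0178), and this call was lost without replicate 1 of 24 h (log2 fold change -0.50) or of 72 h (-0.39). Pdgfra at 2.35, 3.5 and 2.53 CPM missed the threshold (log2 fold change -0.87 ± 0.35, adjusted p = 0.0817), as did Mbp with 3, 2 and 5 counts (adjusted p = 0.0609). Gpr17 with 9, 6 and 8 counts and Myrf with 18, 15 and 17 were not called either. Without the 3 libraries that stood apart edgeR called Pdgfra (-0.86, adjusted p = 0.00266) and Mbp (-1.77, adjusted p = 0.0154) lower. With only the groups compared it called Pdgfra lower as well (-0.87, adjusted p = 0.0168).

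Cnp was the gene that rose, to 4789, 8129 and 8962 counts at 72 h. In CPM these were 362, 499 and 493, each over 3 times any library at 24 h or in NSPs. The log2 fold change from 24 h was 2.06 ± 0.21 (adjusted p = 1.25e-06). Dnajc7, with which it shares exon bases, moved from 119 ± 2.65 to 173 ± 4.62 CPM in the same step.

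Per library, the ratio of Cnp to Olig2 reads in one and the same culture went from 0.142 to 0.279 in NSPs and 1.08 to 1.32 at 24 h up to 17.3 to 26.8 at 72 h. At 1 week it was 9.21 to 10. The ratio of Olig1 to Olig2 moved far less, from 1.21 at the lowest to 3.14 at the highest over the 18 libraries.

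**Figure D3:**
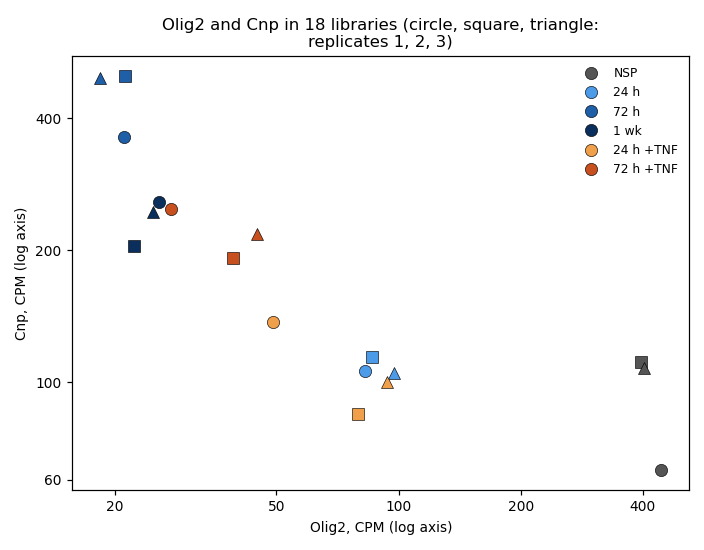
Olig2 (horizontal, log axis) against Cnp (vertical, log axis) in CPM, with 1 point per library and the shape giving the replicate number. NSPs sit at the lower right, near 400 CPM of Olig2, the 72 h cultures at the upper left, and the 72 h cultures with TNF between them and the 24 h ones.

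From 72 h to 1 week 2 genes were called, Bcas1 higher and Cnp lower, against 6.63% of all tested genes, 2.68% higher and 3.96% lower. Cnp came down to 258, 205 and 245 CPM, below each 72 h library (log2 fold change -0.93 ± 0.20, adjusted p = 0.0072). In edgeR this call was lost with the replicate number as a block and the third 72 h library unpaired (-0.88, adjusted p = 0.064). Bcas1 was at 45, 38.4 and 44.6 CPM, above each 72 h library (log2 fold change 0.53 ± 0.15, adjusted p = 0.0399), a call that was lost on leaving out any 1 of the 6 libraries. Leaving out the 3 libraries that stood apart, which are in neither group and enter only through the shared estimate of the spread, gave 5 calls: Bcas1, Olig1 and Cspg4 higher and Cnp and Mbp lower. Olig1 had 61.6 to 81 CPM and Olig2 22.3 to 25.7 CPM at 1 week, just above their 72 h ranges and short of the threshold (adjusted p = 0.462 and 0.513). Cspg4, at 14.3 to 19.7 CPM, was above each 72 h library and also missed it (log2 fold change 0.80 ± 0.41, adjusted p = 0.3). With only the groups compared Olig1 (0.54, adjusted p = 0.026) and Cspg4 (0.80, adjusted p = 0.0403) were called higher. Over the alternatives the adjusted p ran from 0.016 to 0.648 for Olig1 and from 0.00631 to 0.633 for Cspg4.

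Mbp had no read in any of the 3 libraries at 1 week. Against a floor of 3 counts summed over the group, its summed level was 7.25-fold higher in NSPs, 13.2-fold higher at 24 h and 3.72-fold higher at 72 h. These folds take the summed 22, 32 and 10 counts as exact and leave out the spread between replicates. The step from 72 h to 1 week missed the threshold in edgeR (adjusted p = 0.0642). DESeq2 called it lower at 1 week, as did edgeR without the 3 libraries that stood apart, and the adjusted p ran from 0.013 to 0.177 over the alternatives. Gpr17 with 19, 16 and 12 counts and Myrf with 36, 25 and 19 were detected in the same libraries, where Lims2 had 55, 46 and 37 counts.

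Set against NSPs, the 1 week cultures had 7 genes lower and 1 higher, with 58.6% of all tested genes called, 29.6% higher and 29.1% lower. The median log2 fold change was -2.74 over the 9 genes and 0.06 over all genes tested. Olig2 fell by 4.09 ± 0.21 on the log2 scale (adjusted p = 1.79e-11) and Olig1 by 3.24 ± 0.38 (adjusted p = 9.11e-07). Pdgfra, at 1.94, 2.03 and 2.75 CPM, fell by 2.74 ± 0.35 (adjusted p = 2.58e-06). Cspg4, at 15.3, 19.7 and 14.3 CPM, fell by 2.83 ± 0.41 (adjusted p = 9.7e-06). Bcas1 fell by 1.08 ± 0.15 (adjusted p = 5.88e-06), and Gpr17 by 2.20 ± 0.64 (adjusted p = 0.00635), a call lost when only the groups compared were fitted. Mbp, with 4, 8 and 10 counts in NSPs and no read at 1 week, was called lower too (adjusted p = 0.00105), by 7.25-fold against the floor given above. Cnp was 1.33 ± 0.20 higher on the log2 scale (adjusted p = 1.95e-05), and Myrf alone was not called (0.06 ± 0.26, adjusted p = 0.865). Without the 3 libraries that stood apart 8 genes were called as well.

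The fall of Olig1, Olig2 and Cspg4 came with a fall of cell division genes. All 8 proliferation markers examined were called lower at 24 h than in NSPs and again at 72 h than at 24 h, against 25.5% and 12.6% of all tested genes called lower, and Mki67, made only in cycling cells, went from 474 ± 18.2 to 41.1 ± 3.03 and 1.39 ± 0.0453 CPM. The part of this in the members' fall was not tested. The genes whose log2 CPM ran most like that of Olig2 over the 18 libraries were Aspm (Pearson r = 0.987), Iqgap3 (0.980) and Uhrf1 (0.977), out of 16451 genes with a mean of at least 1 CPM. For Olig1 they were Sox8 (0.977), Gm3764 (0.973) and Hes6 (0.972), and for Cnp Gpr37l1 (0.969), Fxyd1 (0.962) and Scpep1 (0.957). Pdgfra ran most like Gpc2 (0.955), Cspg4 like AU022754 (0.950), Bcas1 like Acot7 (0.968), Mbp like Clybl (0.920), Gpr17 like Pgpep1 (0.864) and Myrf like Gm45694 (0.800). Among the members, Olig1 and Olig2 had an r of 0.96 and Olig2 and Cnp one of -0.83. These libraries fall into 6 conditions that set most of such values, so they describe the patterns and carry no test.

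The other genes of the lineage were examined in lists for 3 stages. Of 12 precursor genes, 10 were tested, and 7 of these were lower and none higher at 24 h than in NSPs, while all 10 were lower at 1 week, against 25.5% and 29.1% of all tested genes called lower. Their median log2 fold change was -1.58 at 24 h and -2.74 at 1 week, against 0.06 over all genes in both comparisons. Without the 3 libraries that stood apart 8 were lower at 24 h and all 10 at 1 week. Sox8, a SOX factor gene, had means of 256 ± 47.6 CPM in NSPs, 90.1 ± 5.05 at 24 h and 12.1 ± 2.17 at 72 h, a path close to that of Olig1. Vcan and Cspg5, which like Cspg4 encode chondroitin sulfate proteoglycans, fell by 3.94 ± 0.23 and 2.90 ± 0.16 on the log2 scale by 1 week (adjusted p = 7.91e-11 and 6.03e-11). Ptprz1, a receptor phosphatase also made by neural stem cells and astrocytes, had the highest level of the list, at 2459 ± 226 CPM in NSPs. Few or no reads came from Sox10 and Nkx2-2, which encode factors of the lineage and of its precursors: Sox10 reached at most 1.15 CPM in any library and Nkx2-2 was at 0 in 17 of 18.

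Of 12 genes of the committed stage, 10 were tested, and in these 4 rose and 2 fell in the first 24 h and, from 24 h to 72 h, 4 higher and 1 lower. In the first step 6 of 10 called is near the 52.7% of all tested genes called, and in the second 24.8% were called, 12.2% higher and 12.6% lower. By 1 week 3 were higher and 2 lower than in NSPs, against 58.6% of all tested genes called, with a median log2 fold change of 0.53. Without the 3 libraries 4 rose and 2 fell in the first 24 h and by 1 week, and 4 rose and 3 fell from 24 h to 72 h. Tns3, an adhesion adaptor gene, rose by 2.35 ± 0.17 on the log2 scale over NSPs by then (adjusted p = 1.39e-09), and Fyn, a kinase gene active in many neural cells, fell by 2.40 ± 0.13 (adjusted p = 5.45e-11). Tcf7l2, a Wnt pathway factor gene, was higher by 1.61 ± 0.30 (adjusted p = 0.000155).

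Most myelin genes were not detected at a level that could be followed. Of 19 listed besides Cnp and Mbp, 11 stayed under 1 CPM in every library, 2 of them (Gjb1 and Klk6) without a single read, and Mag, Mog and Mobp reached at most 0.406 CPM. Of the 9 tested, 3 rose and 2 fell between NSPs and 24 h, and 3 rose and 3 fell between 24 h and 72 h, with median log2 fold changes of -0.40 and -0.02. Of all tested genes 52.7% and 24.8% were called in these steps, so the 5 of 9 called in the first is near the background. In each of these steps 3 rose and 3 fell without the 3 libraries. At 1 week 3 were higher and 5 lower than in NSPs, with a median log2 fold change of -0.89, or 3 and 4 without the 3 libraries (-0.46). Of all tested genes 29.6% were called higher and 29.1% lower in that comparison. At 72 h Plekhb1, which is also expressed outside myelin, rose with Cnp, from 75.2 ± 1.41 to 350 ± 51.5 CPM (log2 fold change 2.22 ± 0.31, adjusted p = 3.51e-05). Mal, a membrane raft protein gene, rose at each step from 0.753 ± 0.142 CPM in NSPs to 10.9 ± 0.232 at 1 week. Gjc3, a connexin gene, went the other way, from 323 ± 140 to 7.01 ± 2.22 CPM (log2 fold change -5.54 ± 0.38, adjusted p = 5.84e-10).

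**Figure D4:**
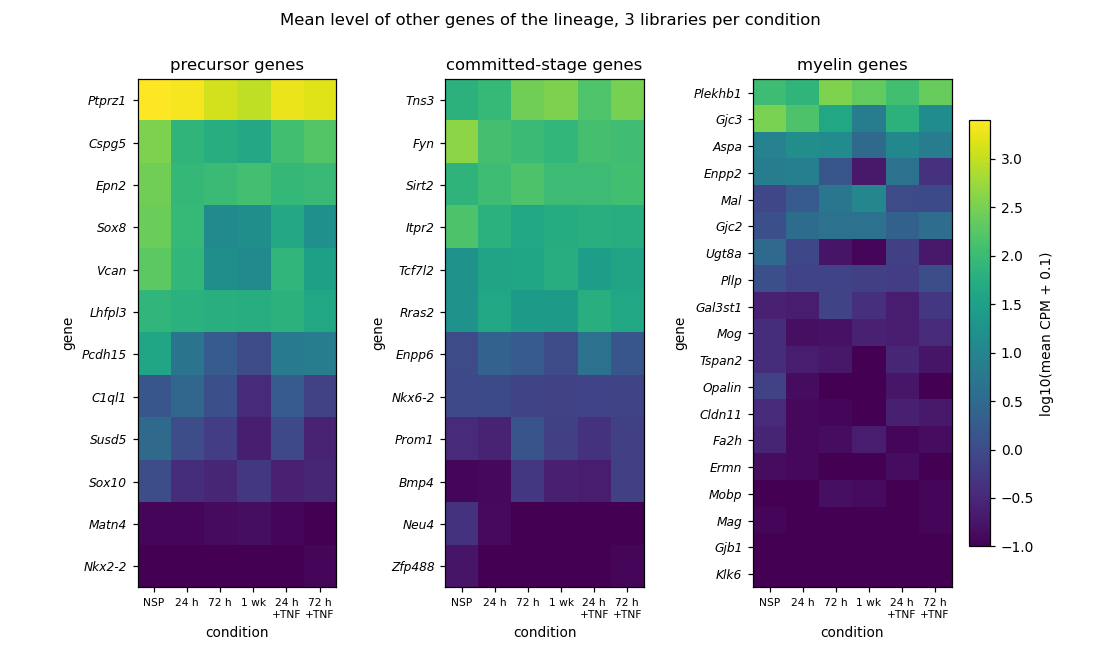
Mean level of 12 precursor, 12 committed-stage and 19 myelin genes in the 6 conditions (n = 3 each), as colour on the scale log10(mean CPM + 0.1), sorted by their mean. The lower rows of each panel, among them Nkx2-2, Mag and Mobp, are dark throughout, and Plekhb1 is brightest at 72 h.

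The comparison at each time of cells with and without TNF asked whether the inflammatory cytokine changed these genes. At 24 h none of the 9 was called by edgeR, against 3.5% of all tested genes (2.18% higher and 1.32% lower), and DESeq2 also called none. Myrf, with a log2 fold change of -0.58 ± 0.28 and an adjusted p of 0.358, was the only one with an unadjusted p under 0.05. Its libraries had 0.895 to 1.13 CPM with TNF and 1.13 to 1.85 CPM without. Leaving out the 3 libraries that stood apart also gave 0 calls.

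Olig1 had 231, 256 and 295 CPM at 24 h without TNF and 64.2, 188 and 246 CPM with it. The first TNF library was far under the other 2, of which 1 lay below each untreated library and 1 within their range, and the log2 fold change was -0.65 ± 0.35 (adjusted p = 0.454). That library was also the lowest for Olig2, at 49.1 CPM against 79.3 and 93.7 with TNF and 82.7 to 97.2 without (log2 fold change -0.26 ± 0.19, adjusted p = 0.623). It held 1871 CPM of Gfap against 463 and 596 in its partners, and the part of this in its low Olig values was not tested. Cspg4 at 30.7 to 44.3 CPM, Cnp at 84.5 to 137 and Bcas1 at 39.6 to 48.8 overlapped their untreated ranges (adjusted p from 0.921 to 0.994). Few reads were left for Pdgfra (79, 63 and 69 counts with TNF), Mbp (16, 2 and 11) and Gpr17 (2, 5 and 5), and their ranges overlapped the untreated ones too (adjusted p from 0.904 to 0.989).

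At 72 h, 2 genes were higher and 1 was lower with TNF, against 9.56% of all tested genes, 4.35% higher and 5.21% lower. The median log2 fold change was 0.46 over the 9 genes and -0.01 over all genes tested. Olig2 had 277, 346 and 334 counts without TNF and 488, 673 and 714 with it, or 18.4 to 21.2 against 27.5 to 44.7 CPM. All 3 treated libraries were above all 3 untreated ones, with a log2 fold change of 0.88 ± 0.19 (adjusted p = 0.00629). The call was lost with the replicate number as a block and the third 72 h library unpaired (0.72, adjusted p = 0.0656), while the adjusted p ran from 7.8e-06 to 0.0656 over the alternatives. Olig1 had 42.6, 52 and 55.1 CPM without TNF and 38.9, 81.1 and 112 with it, so that 1 treated library was below every untreated one and 2 were above (log2 fold change 0.63 ± 0.36, adjusted p = 0.288).

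Cspg4 had 147, 167 and 128 counts without TNF and 1322, 304 and 356 with it. Every treated library was higher, but the first, at 74.5 CPM, stood far above its partners at 17.6 and 22.3. The log2 fold change was 2.02 ± 0.41 with it (adjusted p = 0.00326) and 1.08 without it, still past the threshold. It was 1.79 and short of the threshold in the same unpaired replicate block (adjusted p = 0.0528, with a range of 0.000449 to 0.0528 over the alternatives). Pericytes make NG2 as well, and of 16 pericyte and fibroblast genes 10 were under 1 CPM in every library, with Pdgfrb at 0 in the library with the most Cspg4. Abcc9 and Kcnj8 were at 0 in all 3 treated libraries. The summed level of these 16 genes was 117 to 277 CPM at 72 h with TNF and 242 to 322 without, and it was lowest in that same library. Most of the sum came from Acta2, at 49.2 CPM in that library against 186 and 202 in its partners, and from Notch3, at 60.3 against 38.7 and 67.5. The pericyte genes Rgs5 and Des went the other way: Rgs5 was at 4.56 CPM in that library against 2.09 and 1.56, and Des at 1.07 CPM (19 counts) against 0.058 and 0.125 (1 and 2 counts). The part of these genes in the level of Cspg4 was not tested.

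Cnp was lower with TNF at 72 h. The counts were 4397, 3316 and 3491 against 4789, 8129 and 8962 without TNF, or 248, 192 and 218 against 362, 499 and 493 CPM. No treated library reached an untreated one, and the log2 fold change was -1.04 ± 0.20 (adjusted p = 0.00214). Bcas1 at 39.4 to 42.7 CPM was above each untreated library and missed the threshold (log2 fold change 0.46 ± 0.15, adjusted p = 0.0616). Pdgfra with 47, 34 and 23 counts, Mbp with 9, 2 and 1, Gpr17 with 7, 8 and 9 and Myrf with 28, 28 and 21 were not called (adjusted p from 0.253 to 0.983).

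Without the 3 libraries that stood apart, 5 genes were called at 72 h. Olig1, at 0.96 on the log2 scale, and Bcas1, at 0.48, then joined Olig2 (1.06), Cspg4 (1.09) and Cnp (-1.12). The first library of 72 h with TNF had 10 CPM of Mki67 against 1.62 and 1.75 in its partners and 1022 CPM of Gfap against 217 and 229, and the part of this in its values was not tested. Over the astrocyte list, 4 of 10 genes were lower with TNF at 72 h and none higher, against 5.21% of all tested genes called lower, and without the 3 libraries 6 were lower and 1 was higher. The ranges of the summed level given above did not overlap between the treated and untreated cultures at 72 h.

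**Figure D5:**
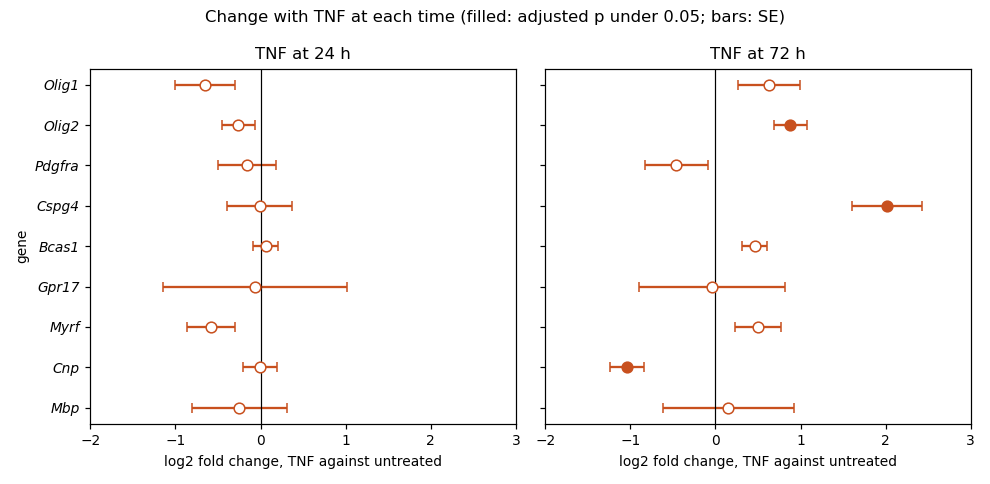
Log2 fold change of the 9 genes with TNF against untreated cells at 24 h and 72 h (horizontal axes; whiskers are SE, filled points have an adjusted p under 0.05). No point is filled at 24 h, and at 72 h Olig2 and Cspg4 are filled on the right of 0 and Cnp on the left.

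Whether the effect of TNF differed between 24 h and 72 h was tested by the interaction. None of the 9 was called by edgeR, against 0.458% of all tested genes, 0.135% with a positive difference and 0.324% with a negative one. Of the 9, 5 had an unadjusted p under 0.05, and the share of all tested genes at that threshold was not determined. These 5 were Olig2 (log2 difference 1.14 ± 0.27, adjusted p = 0.0762), Cspg4 (2.03 ± 0.56, 0.143), Cnp (-1.03 ± 0.28, 0.143), Myrf (1.09 ± 0.39, 0.301) and Olig1 (1.28 ± 0.50, 0.388). DESeq2 called 2, Olig2 and Cnp, and edgeR called 3 without the 3 libraries that stood apart, Olig1, Olig2 and Cnp. A different response at the 2 times was therefore not established for any member by the main test.

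Within the TNF-treated cultures, 3 genes fell from 24 h to 72 h and Cnp rose, against 13.3% of all tested genes called, 5.38% higher and 7.93% lower. Olig2 fell by 1.00 ± 0.19 on the log2 scale (adjusted p = 0.0019), Pdgfra by 1.17 ± 0.36 (adjusted p = 0.0382) and Olig1 by 1.10 ± 0.36 (adjusted p = 0.048). All 3 calls were lost with only the groups compared, those of Pdgfra and Olig1 also with at least 10 counts in every library, and that of Olig1 by DESeq2 as well. The call of Pdgfra was lost on leaving out any 1 of the 6 libraries except the first of 72 h with TNF, with log2 fold changes of -0.98 to -1.25. In edgeR this call was also lost with the replicate number as a block and the third untreated 72 h library unpaired (-1.16, adjusted p = 0.0523). That of Olig1 was lost without replicate 2 (-0.98) or replicate 3 (-0.71) of 24 h with TNF and without replicate 1 (-0.75) or replicate 2 (-1.14) of 72 h with TNF. Cnp rose by 1.03 ± 0.20 (adjusted p = 0.0024). Cspg4 had a log2 fold change of 0.01 ± 0.38, which rested on 1 library: without the first library of 72 h with TNF it was -0.90 and past the threshold. Without the 3 libraries that stood apart 5 genes were called, Cspg4 among them as lower.

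Ordered by mean, Olig2 ran from NSPs (415 CPM) through 24 h, 24 h with TNF, 72 h with TNF and 1 week down to 72 h (20.2 CPM), and only 24 h and 24 h with TNF overlapped among neighbours. In the order of Olig1 the overlapping neighbours were 24 h with 24 h with TNF, this with 72 h with TNF, and this with 1 week. Cnp ran from 72 h (451 CPM) through 1 week, 72 h with TNF, 24 h and 24 h with TNF to NSPs (94.2 CPM). Of these neighbours 1 week overlapped 72 h with TNF, 24 h overlapped 24 h with TNF, and that overlapped NSPs. Pdgfra ran from NSPs (14.8 CPM) through 24 h, 24 h with TNF, 72 h and 1 week to 72 h with TNF (2.02 CPM), with overlap between 24 h and 24 h with TNF and among the last 3. Cspg4 had 117 CPM in NSPs and means of 37.9 to 38.3 CPM in the 24 h, 24 h TNF and 72 h TNF cultures, which overlapped. The 1 week cultures (16.4 CPM, 14.3 to 19.7) overlapped those of 72 h with TNF (17.6 to 74.5), and 72 h (9.47 CPM) stood below every other condition. For Bcas1, NSPs (90.3 CPM) stood above the 24 h TNF, 1 week, 24 h and 72 h TNF cultures, which overlapped in this order between means of 43.9 and 40.7 CPM, and 72 h (29.6 CPM) stood below them. Gpr17 ran from NSPs (3.92 CPM) through 1 week (0.854 CPM), 72 h and 72 h with TNF to both 24 h conditions (0.265 and 0.262 CPM). There NSPs overlapped 1 week, the 72 h conditions overlapped each other, and so did the 24 h ones. Mbp was highest at 24 h (0.735 CPM) and overlapped between all neighbours down to 72 h (0.208 CPM), with 1 week below at 0. For Myrf all neighbouring conditions overlapped, between means of 1.01 and 1.51 CPM.

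The stage lists were also compared with and without TNF, where 3.5% of all tested genes were called at 24 h and 9.56% at 72 h. At 72 h 3 of the 10 tested precursor genes were higher with TNF and none lower: Cspg5 (log2 fold change 1.55 ± 0.16, adjusted p = 4.27e-06), Vcan (1.04 ± 0.21, adjusted p = 0.00327) and Pcdh15 (1.92 ± 0.56, adjusted p = 0.038). At 24 h Cspg5 was higher (0.63 ± 0.15, adjusted p = 0.0267) and Sox8 lower (45 ± 15.9 against 90.1 ± 5.05 CPM, adjusted p = 0.00922). Of the 10 tested committed-stage genes edgeR called none at 72 h, and at 24 h it called Tns3 alone as higher (0.83 ± 0.16, adjusted p = 0.00661). The median log2 fold change at 72 h was 0.15 over the tested precursor genes, 0.11 over those of the committed stage and -0.79 over the myelin genes, against -0.01 over all genes. Of the 9 tested myelin genes 3 were lower at 72 h, namely Mal (-2.62 ± 0.35, adjusted p = 8.03e-05), Gjc3 (-1.65 ± 0.32, adjusted p = 0.00245) and Aspa (-0.87 ± 0.25, adjusted p = 0.0358), and Gjc3 alone was lower at 24 h (-1.15 ± 0.31, adjusted p = 0.0431). Each of these calls held without the 3 libraries that stood apart, and more genes were then called. At 72 h 4 precursor genes were higher, 2 committed-stage genes were higher and 1 was lower, and 5 myelin genes were lower, while at 24 h 2 committed-stage genes were higher and 3 myelin genes lower.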

How the data were processed

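RNA was sequenced from 18 cultures in 6 conditions, and each library's condition was taken from its labels. Per the submitters' processing notes and the methods of the study, the authors trimmed reads with Trim Galore, checked them with FastQC, used STAR for alignment to mm10 and Samtools for sorting, and ran Feature Counts to obtain the raw counts per gene that they deposited. Versions and the strand setting are not given in the sources used here. RNA quality is given in the study's methods only as a range over all libraries, which reaches down to a low score. It was not examined per library, so that of the libraries that stood apart is not known.

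The deposited counts were scaled by TMM and tested with edgeR 4.0.16 (limma 3.58.1, R 4.3.3) by its quasi-likelihood test, in 1 fit of all 18 libraries with 1 mean for each condition. P-values of the 20067 genes left by filterByExpr were adjusted together by Benjamini-Hochberg at 0.05, and the biological coefficient of variation was 0.18. SE is the log2 fold change divided by the root of F. Log2 CPM used a prior count of 2. The scripts were tested on simulated data.

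Replicate numbers come from the labels. Deviations of same-numbered libraries correlated in all 3 pairs only between 72 h with TNF and 24 h with TNF (0.255 to 0.291), and with the number as a replicate block 4 members were called there, as without it.

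The members and the gene lists (precursor, committed stage, myelin, differentiation brakes, PDGF ligands and receptors, and markers of pericytes and fibroblasts, astrocytes, neurons, microglia, endothelium, proliferation, neural stem cells and the TNF response) were chosen with earlier results of these data known. Of the myelin list 1 gene is not reported here. Genes were named if they were members, or in a list by the largest called change at a mean of at least 1 CPM or by level, and the 3 most similar genes were sought by Pearson's r. Defining markers named at or near 0, Dnajc7 and other overlapping genes were chosen after their values were seen. Alternatives were DESeq2 1.42.0, RLE scaling, other count filters (5 in total, 10 in every library), only the groups compared, a replicate block, a minimum log2 fold change of 1 and leaving out each library. Leaving out 3 libraries together was added after the data were seen.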

Additional observations from a re-analysis of the deposited data

How the results depend on the processing

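Over the 72 pairs of a member and a comparison, 39 kept their direction and their side of the threshold under every alternative run, 20 changed their side of the threshold with no change of sign, and 13 changed sign under at least 1. The count of members called kept within 1.5 times in every alternative for 24 h against NSPs, 72 h against 24 h, 1 week against NSPs and TNF at 24 h. For 1 week against 72 h (2 in the main test) it was 4 with only the groups compared, 5 without the 3 libraries that stood apart, 0 with a log2 fold change of at least 1, and 1 whichever library was left out. With the replicate number as a block it was 1, and 0 with the third 72 h library unpaired, since its column carries another number in the table. Outside the TNF time course same-numbered libraries correlated from -0.416 to 0.303, and whether they share more than a number was not tested. For TNF at 72 h (3) it was 1 with that unpaired replicate block and 5 without the 3 libraries. For 72 h against 24 h with TNF (4) it was 2 with at least 10 counts in every library, 1 with only the groups compared, and 2 to 5 on leaving out 1 library. For the interaction (0) it was 2 by DESeq2, 3 without the 3 libraries and 0 to 1 on leaving out 1 library. Cspg4 between 24 h and 72 h with TNF (log2 fold change 0.01) reversed, ranging from -0.90 without the first library of 72 h with TNF to 0.35 without the second, and was -0.88 without the 3 libraries, -0.05 with the replicate block and -0.04 with it unpaired. The other 12 that changed sign were not called under any setting. On leaving out 1 library Cnp ran from -0.02 to 0.33 and Myrf from -0.03 to 0.30 for 24 h against NSPs, and Myrf from -0.07 to 0.19 for 1 week against NSPs. For TNF at 24 h the ranges were -0.14 to 0.11 for Cspg4, -0.82 to 0.16 for Mbp, -0.24 to 0.13 for Cnp, -0.03 to 0.11 for Bcas1 and -0.36 to 0.39 for Gpr17. At 72 h they were -1.15 to 0.56 for Mbp and -0.22 to 0.21 for Gpr17, and for the interaction -0.89 to 0.99 for Mbp and -0.43 to 0.32 for Gpr17. With the 3 libraries left out Cnp was -0.04 at 24 h against NSPs, Gpr17 0.24 and 0.09 with TNF at 24 h and 72 h and -0.16 in the interaction, and Mbp -1.14 with TNF at 72 h and -0.33 in the interaction. Gpr17 in the interaction was -0.03 by DESeq2 and -0.32 with the unpaired replicate block. Apart from the fewer libraries and the added fold minimum, the cause was not tested. The replicate block changed no other count by more than 1.5 times. Depth limits Mbp, Gpr17 and Myrf, which had at most 36 counts per library outside 2 NSP libraries.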

Other observations

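The PDGF list holds the growth factors that PDGFRA and its relative PDGFRB bind, together with Pdgfrb. Of 4 tested genes of this list all 4 were higher at 1 week than in NSPs, against 29.6% of all tested genes called higher. Pdgfb, almost unread in NSPs at 0.0818 ± 0.098 CPM, was at 2.21 ± 0.678 at 24 h, 20.3 ± 1.77 at 72 h and 56 ± 5.84 CPM at 1 week (SD, n = 3). Pdgfa, the main ligand of PDGFRA, was at 12.9 ± 3.15 CPM in NSPs, lower at 24 h at 8.92 ± 0.616 CPM (log2 fold change -0.53 ± 0.17, edgeR, adjusted p = 0.015), and at 43.8 ± 5.13 CPM at 1 week. The call at 24 h was lost without the 3 libraries that stood apart (-0.33 ± 0.15, adjusted p = 0.0665). Pdgfc fell from 24 h to 72 h (-0.61 ± 0.20, adjusted p = 0.0314). With TNF at 24 h 2 of the 4 were higher, Pdgfa by 1.32 ± 0.17 and Pdgfb by 2.41 ± 0.37 on the log2 scale (edgeR, adjusted p = 0.000143 and 0.00072), where 3.5% of all tested genes were called. At 72 h, where 9.56% were, edgeR called none of the 4, 1 of them, Pdgfa, at an unadjusted p under 0.05. Without the 3 libraries edgeR called Pdgfb higher (0.67 ± 0.18, adjusted p = 0.0184) and not Pdgfa (0.29 ± 0.13, adjusted p = 0.173). Pdgfrb stayed at or under 0.603 CPM in every library.

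Of 7 genes known to hold back oligodendrocyte differentiation, 3 rose and 3 fell between NSPs and 24 h, where 52.7% of all tested genes were called. From 24 h to 72 h, where 24.8% were, 4 were lower and none higher, or 5 lower and 1, Id4, higher without the 3 libraries. At 1 week 4 were lower and 1 was higher than in NSPs, not far from the 58.6% called over all genes. Id4, which blocks helix-loop-helix factors, was at 34.5 ± 14.1 CPM in NSPs and 191 ± 25 at 24 h, while Hes5, a target of Notch, went from 72.5 ± 41.7 to 7.69 ± 1.27 CPM. With TNF at 24 h, where 1.32% of all tested genes were called lower, edgeR called 2 lower and none higher. These were Lingo1 (log2 fold change -1.37 ± 0.33, adjusted p = 0.0241) and Sox5 (-0.47 ± 0.13, adjusted p = 0.0429). At 72 h with TNF, where 5.21% of all tested genes were called lower, 3 were lower and none higher, namely Lingo1 (log2 fold change -1.44 ± 0.32, adjusted p = 0.00697), Hes1 (-1.44 ± 0.35, adjusted p = 0.0115) and Id4 (-1.34 ± 0.25, adjusted p = 0.00188).

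The counts for other cell types read against 52.7% of all tested genes called between NSPs and 24 h (27.2% higher, 25.5% lower), 58.6% between NSPs and 1 week, and 3.5% and 9.56% with TNF at 24 h and 72 h. The 9 microglial genes summed to at most 3.95 CPM in any library. Among 7 tested neuronal genes 1 rose and 2 fell in the first 24 h (2 and 3 without the 3 libraries), and 5 were below NSPs at 1 week. Of 5 tested pericyte and fibroblast genes 3 were higher at 24 h than in NSPs, Acta2 among them, which rose from 5.83 ± 3.91 to 439 ± 48.4 CPM. Of 6 neural stem cell genes 4 were lower at 24 h and 4 at 1 week, with 1 higher at 24 h, and the 4 of 6 at 1 week is near the share over all genes. Of the 2 endothelial genes tested edgeR called none between NSPs and 24 h or 1 week, with neither at an unadjusted p under 0.05, and 1, Kdr, was lower with TNF at 72 h. Kdr was called higher than in NSPs, without the 3 libraries, at 24 h (log2 fold change 1.03, adjusted p = 0.000769) and at 1 week (1.17, adjusted p = 0.000158). Of 6 tested TNF response genes all 6 were higher with TNF at 24 h and 5 at 72 h.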
